A study of Danio rerio with 12 samples.

Results

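The transcripts described here encode the JAK-STAT signalling machinery, its SOCS inhibitors, the interferon regulatory factors and a set of antiviral effectors in the adult zebrafish kidney. Members were chosen by gene symbol alone: symbols beginning with jak1, jak2, jak3, tyk2, socs, ifit, mxa, mxb or mxc, symbols with stat or irf followed by a digit, and isg15, rsad2 and cish. This gave 51 of the 14781 genes in the count tables, made up of 3 JAK kinases, 9 STATs, 12 SOCS genes counting cish, 12 interferon regulatory factors (IRFs), 4 IRF2-binding proteins, 10 antiviral effectors and ifitm5. The IRF2-binding proteins (irf2bp1, irf2bp2a, irf2bp2b and irf2bpl) and ifitm5 were caught by their letters and are told apart below. Symbols beginning with jak3 or tyk2 had no row and were not analysed here.

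RNA was sequenced from whole kidneys in 12 libraries, 3 in each of 4 groups: CEN knockouts (CEN KO), CEN wild types (CEN WT), cebpd knockouts (cebpd KO) and cebpd wild types (cebpd WT). All fish were adult males of the EK strain aged 4 to 12 months. Every group had its heart muscle cells ablated with tamoxifen, given at 0.5 to 0.7 µM over 17 h, and the kidneys were taken 7 days later. There was thus no uninjured group, and every comparison, between genotypes or between the wild types of both experiments, is after heart injury. Per the series title, the study sought kidney genes under the control of the transcription factor Cebpd while the heart regenerates. The labels do not explain CEN, which is known from the study's published work as an enhancer linked to cebpd. Nor do they name the transgene that drives the ablation, the lesion in either knockout, or whether a library came from 1 fish or from pooled kidneys. The p-values therefore measure the spread between these libraries.

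In the JAK-STAT pathway, a cytokine or interferon binds its receptor, receptor-bound JAK kinases phosphorylate STAT proteins, and STAT dimers enter the nucleus to switch on target genes. SOCS proteins and Cish are among those targets and shut the receptors down again, while IRFs act beside the STATs in turning on interferon-stimulated genes such as the Mx, Ifit, Isg15 and viperin (rsad2) effectors. The adult zebrafish kidney holds the blood-forming marrow as well as nephrons. These transcripts may therefore come from white and red blood cell precursors, from kidney tubules or from both, and whole-kidney libraries do not tell which.

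Gene counts were 15793475 to 18104535 per library, so that 3 counts corresponded to 0.166 to 0.190 CPM (read counts scaled to library size). This floor leaves out the further scaling factors (TMM) that all other CPM values use, so it is only approximate beside them. That limit reflects counting error alone. The cebpd transcript had 10.4, 4.03 and 12.9 CPM in cebpd KO, against 316, 466 and 337 CPM in cebpd WT. It had 67.8, 72.7 and 77.8 CPM in CEN KO, against 294, 333 and 212 CPM in CEN WT, and both knockout groups lay wholly below their wild types. Kidney markers were present in all 12 libraries, with summed levels of 4920 to 8204 CPM for the proximal tubule list, 3271 to 5045 CPM for the distal tubule list and 351 to 733 CPM for podocytes. Of the distal tubule list, slc12a10.1 had no count in any library. The library cebpd KO replicate 3 stood apart from its group, with correlations of 0.952 and 0.954 of log2 CPM over genes with the other 2 cebpd KO libraries, which correlated at 0.979 with each other. It held the lowest value of all 12 libraries in 16 of 48 members (33.3%) and in 20.7% of all genes tested. It also held the highest value in 4 members and in 19.5% of all genes. The lowest value was in cebpd WT replicate 1 for 10 of 48 members (20.8%) and 10.6% of all genes. For cebpd WT replicate 2 this was 6 members (12.5%) and 6.39% of all genes. In the cebpd comparison, values without cebpd KO replicate 3 are given for the members as a whole and for some single members, not all. They are also given for the kinase, STAT, SOCS, IRF and effector groups. That library was singled out from these same data, and leaving it out raises the changes of members in which it was lowest. These values are therefore not read as support for a rise. CEN KO replicate 1 likewise correlated at 0.948 and 0.952 with CEN KO replicates 2 and 3, which correlated at 0.974. Fold changes of the members without CEN KO replicate 1 are not given.

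Of the 51 members, 48 had enough counts to be tested. The remaining members were stat6, with no count in any library, socs3a, with at most 6 counts, and ifit10, with at most 10 counts. In a newer RefSeq gene table the symbol stat7 matched stat6 as an older name, so the empty stat6 row does not show that the gene is silent. Levels were 0.73 to 1.99 CPM for stat7.

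**Figure D1:**
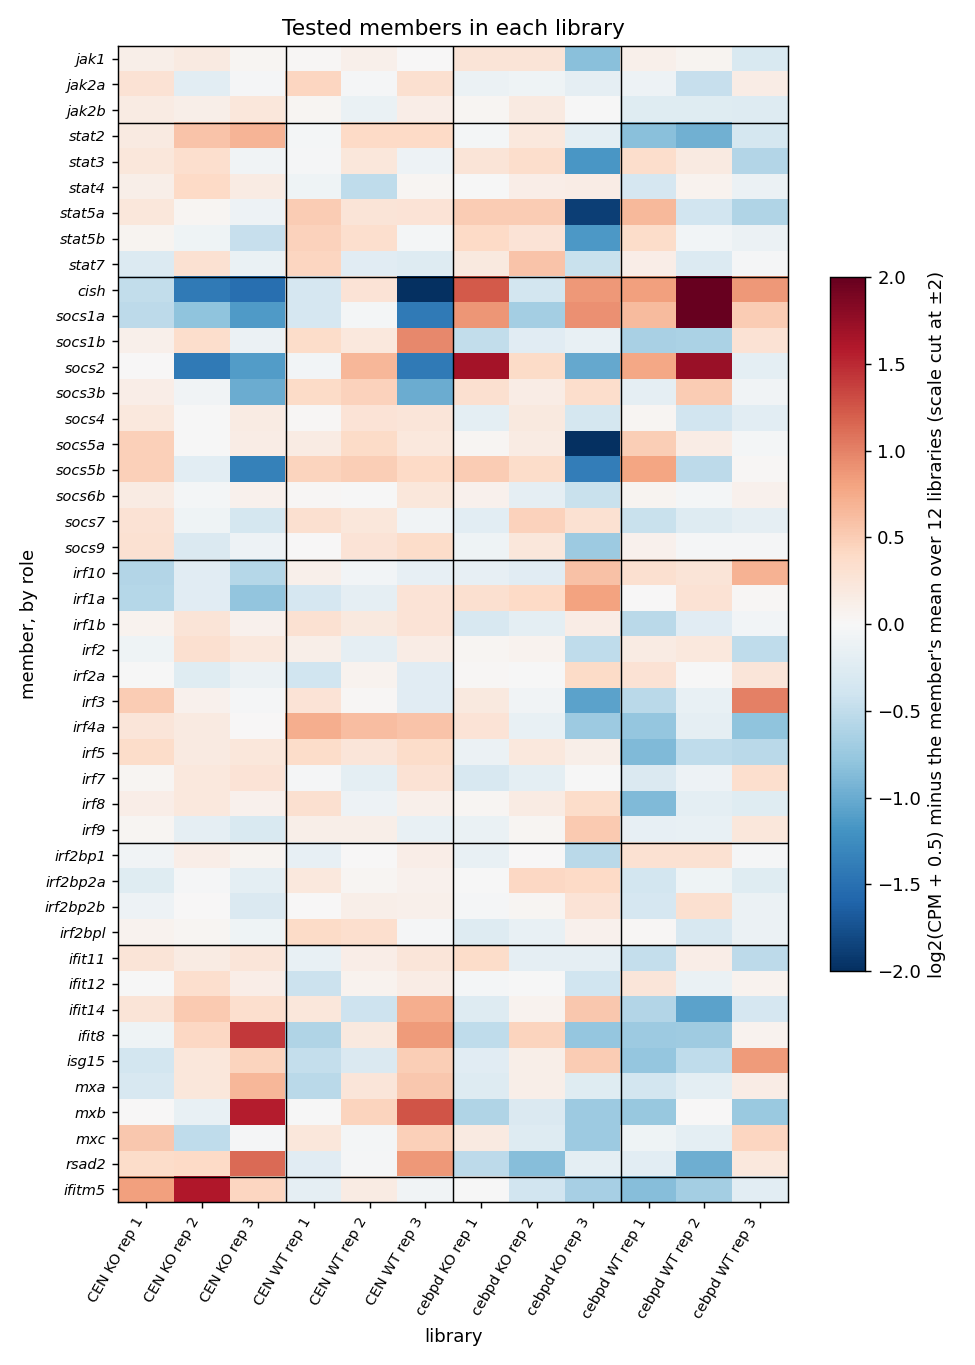
Heat map of 45 of the 48 tested members (rows, grouped by role) in the 12 libraries (columns, grouped by genotype). Colour gives log2 of the level in CPM plus 0.5, minus the member's mean over the 12 libraries, with colours cut at 2 in either direction. The column of cebpd KO replicate 3 holds the lowest value in 14 of the 45 rows, among them jak1, stat3, stat5a and socs5a.

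In the cebpd knockouts the lowest p-values among the members belonged to a few transcription factors and a kinase, and none of the 48 passed the main test. The IRF genes irf5 and irf8, the STAT gene stat2, the co-regulator gene irf2bp2a and the kinase gene jak2b were higher in all 3 cebpd KO libraries than in any cebpd WT library, by 1.25-fold to 1.65-fold. The tested SOCS genes, the other STATs and the tested effectors except ifit14 overlapped between the groups. By edgeR's quasi-likelihood test, with p-values adjusted over the 11840 genes tested and a threshold of 0.05, 0 of 48 members were called, where the background was 10 genes or 0.0845% of all genes. At an unadjusted p under 0.05 there were 9 members (18.8%, against 13.4% of all genes), of which 7 were higher, against 6.58% of all genes, and 2 lower, against 6.8%. DESeq2 called 3, all higher (irf5, irf2bp2a and stat2), or 6.25% of the members, against 3.4% of all genes in either direction and 1.66% higher, and limma-voom called 0 against 0.0845%. Groups did not overlap in 7 members, all of them higher in cebpd KO, which is 14.6% of the members. Of all genes 16.0% did not overlap in either direction and 7.8% were higher in this way. The log2 fold change was above 0 in 25 of 48 members, with a median of 0.01, against -0.01 over all genes. Without cebpd KO replicate 3 it was above 0 in 31 of 48, with a median of 0.14, against -0.01 over all genes. Leaving out a knockout library that was lowest in many members raises their changes, so this shift is not read as a result.

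Among the JAK kinases, jak2b stood at 91.9, 101 and 88.4 CPM in cebpd KO, against 75.4, 75.5 and 74.7 CPM in cebpd WT. It is 1 of 2 zebrafish copies of Jak2, the kinase used by the receptors for erythropoietin, growth hormone and many cytokines. The groups did not overlap, and the log2 fold change was 0.32 ± 0.11 (SE, adjusted p 0.216). Its copy jak2a had 166, 168 and 159 CPM in cebpd KO, against 167, 129.6 and 199 CPM in cebpd WT, with a log2 fold change of -0.01 ± 0.18 (SE). The kinase jak1, which serves interferon and gp130-type receptors, stood at 148 and 147 CPM in cebpd KO replicates 1 and 2 and at 69.5 CPM in replicate 3, the lowest value of all libraries. Its cebpd WT libraries had 132, 128 and 100.1 CPM, and the log2 fold change was 0.02 ± 0.23 (SE), or 0.32 ± 0.13 without replicate 3 (SE, adjusted p 0.212). Of the 3 kinases 2 had a log2 fold change above 0, with a median of 0.02. Without cebpd KO replicate 3 all 3 did, with a median of 0.32. That library had the lowest cebpd KO value of each kinase, so leaving it out raises the changes.

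Among the STATs, stat2, which acts with Irf9 in the complex that answers type I interferon, had the largest difference. It stood at 74.5, 88.6 and 66.7 CPM in cebpd KO, against 42.3, 39.0 and 59.8 CPM in cebpd WT. Every knockout library was above every wild type, 1.63-fold on average, with a log2 fold change of 0.70 ± 0.20 (SE). The adjusted p was 0.149 by edgeR, 0.042 by DESeq2 and 0.0763 by edgeR without cebpd KO replicate 3. stat3, which carries interleukin 6-type signals, had 50.6, 53.8 and 18.5 CPM in cebpd KO, against 54.1, 48.1 and 28.1 CPM in cebpd WT, with the lowest value of each group in replicate 3. Its log2 fold change was -0.08 ± 0.34 (SE), and 0.29 ± 0.24 (SE, adjusted p 0.549) without cebpd KO replicate 3. The paralogs stat5a and stat5b, which act below erythropoietin and growth hormone receptors, spanned 3.58 to 20.8 and 4.25 to 13.3 CPM in cebpd KO, against 9.38 to 23.1 and 9.14 to 13.0 CPM in cebpd WT. Their lowest values were again in cebpd KO replicate 3. The log2 fold changes were 0.05 ± 0.50 and -0.10 ± 0.35 (SE), and without that library 0.54 ± 0.31 and 0.29 ± 0.22 (SE, adjusted p 0.378 and 0.532). stat4, the STAT of interleukin 12 receptors in lymphocytes, overlapped, at 46.5, 51.3 and 52.0 CPM in cebpd KO, against 36.8, 48.9 and 43.1 CPM in cebpd WT. Of the 8 STATs tested 5 had a log2 fold change above 0, with a median of 0.06. Without cebpd KO replicate 3 all 8 did, with a median of 0.32. That library had the lowest cebpd KO value of every tested STAT except stat4, so leaving it out raises the changes.

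**Figure D2:**
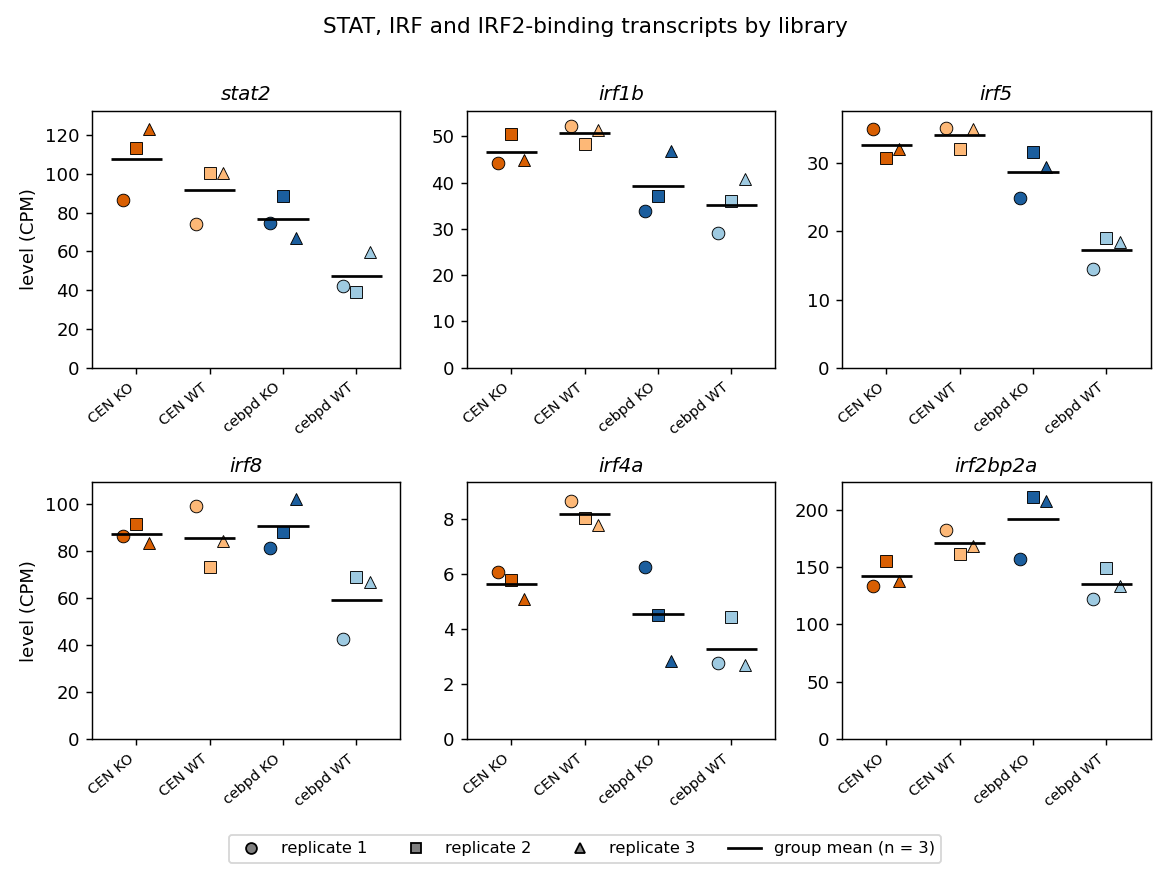
Levels in CPM (vertical axes, linear from 0) of stat2, irf1b, irf5, irf8, irf4a and irf2bp2a in each library, by group (horizontal axes); symbols give the replicate number and bars the mean of 3 libraries. The cebpd WT libraries are below all cebpd KO libraries for stat2, irf5, irf8 and irf2bp2a, and below all CEN WT libraries in all 6 panels.

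Among the IRFs, irf5, which turns on inflammatory cytokine genes below Toll-like receptors, was the member with the lowest p-value. It stood at 25.0, 31.6 and 29.5 CPM in cebpd KO, against 14.5, 19.01 and 18.5 CPM in cebpd WT, with no overlap. The means were 28.7 CPM ± 3.39 in cebpd KO and 17.3 CPM ± 2.47 in cebpd WT (SD, n = 3 each), a 1.65-fold difference. The log2 fold change of 0.73 ± 0.14 (SE) missed the threshold (adjusted p 0.0728). It passed by DESeq2 (adjusted p 0.000814) and, by edgeR, without cebpd KO replicate 3 (0.0409) and with genes under 5 CPM left out (0.0488). By limma-voom it did not pass (adjusted p 0.0800). Of 20 alternative settings only 4 called it, and the adjusted p ran up to 0.284. irf8, required for macrophage formation in zebrafish larvae, had 81.1, 88.1 and 102 CPM in cebpd KO, against 42.4, 68.8 and 66.6 CPM in cebpd WT. These groups did not overlap either, and the log2 fold change was 0.61 ± 0.18 (SE, adjusted p 0.165 by edgeR and 0.0503 by DESeq2). irf1a, 1 of 2 copies of the interferon gamma target Irf1, had 1.24, 1.34 and 1.92 CPM in cebpd KO, against 0.899, 1.20 and 0.914 CPM in cebpd WT. These rest on only 15 to 29 counts per library. Its groups did not overlap, with a log2 fold change of 0.57 ± 0.38 (SE, adjusted p 0.579 by edgeR). irf4a, a lymphocyte factor in mammals, had 6.24, 4.52 and 2.85 CPM in cebpd KO, against 2.75, 4.44 and 2.68 CPM in cebpd WT. The groups overlapped through cebpd KO replicate 3, and the log2 fold change was 0.47 ± 0.29 (SE), or 0.73 ± 0.25 without it (SE, adjusted p 0.138). Of the 12 IRF genes 6 had a log2 fold change above 0, with a median of 0.06, and without that library 6, with a median of 0.02. The members irf7 and irf9, which act with interferon-activated STATs, overlapped between the groups.

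irf2bp2a, a copy of a co-regulator first known as a binding partner of Irf2, had 157, 211 and 208 CPM in cebpd KO, against 122, 149 and 134 CPM in cebpd WT. All 3 knockout libraries were above the wild types, 1.42-fold on average, with a log2 fold change of 0.51 ± 0.14 (SE). The adjusted p was 0.136 by edgeR and 0.0272 by DESeq2. Its relative irf2bp1 spanned 56.0 to 82.4 CPM in cebpd KO and 79.9 to 101 CPM in cebpd WT, with a log2 fold change of -0.41 ± 0.16 (SE, adjusted p 0.274), or -0.24 ± 0.14 without cebpd KO replicate 3 (SE, adjusted p 0.386). ifitm5, a membrane protein known from bone in mammals, stood near the depth floor, at 0.494, 0.269 and 0.133 CPM in cebpd KO, against 0.0562, 0.127 and 0.365 CPM in cebpd WT.

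Of the white cell marker lists, only the neutrophil sums separated the cebpd groups. The neutrophil list summed to 7539, 8505 and 9075 CPM in cebpd KO, against 4266, 5661 and 5033 CPM in cebpd WT, with no overlap. Of its 18 tested genes 16 had a log2 fold change above 0, with a median of 0.63; edgeR called 0 of them, limma-voom 0 and DESeq2 8 (44.4%, against 3.4% of all genes), and 14 were higher at an unadjusted p under 0.05, against 6.58% of all genes. The macrophage and monocyte list summed to 3124 to 4082 CPM in cebpd KO and 2514 to 3583 CPM in cebpd WT, with overlap, and 15 of its 16 tested genes had a log2 fold change above 0. The T and NK cell list spanned 163 to 197 CPM in cebpd KO and 155 to 202 CPM in cebpd WT, and the B cell list 82.5 to 111 CPM in cebpd KO and 75.2 to 101 CPM in cebpd WT. The T and NK cell sums include gata3, which also stands in the distal tubule list. It had the highest count of that T and NK cell list in any library, 1799, so these sums are not of lymphocyte genes alone. Distal tubule markers leaned lower: 0 of 9 tested genes had a log2 fold change above 0, with a median of -0.24, and the sums overlapped at 3271 to 4083 CPM in cebpd KO and 4017 to 5045 CPM in cebpd WT. The distal count was 2 of 9 once cebpd KO replicate 3 was left out. The proximal tubule sums, 4920 to 5781 CPM in cebpd KO and 5581 to 8204 CPM in cebpd WT, overlapped, with 6 of 13 genes above 0. The erythroid sums spanned 16685 to 28259 CPM in cebpd KO and 10245 to 40023 CPM in cebpd WT, with 2 of 12 genes above 0, or 6 of 12 without cebpd KO replicate 3. edgeR called 0 genes of these kidney and erythroid lists in cebpd KO. In whole kidneys fewer cells of a type and less transcript per cell cannot be told apart. The part of marrow and kidney composition in the levels of irf5, irf8, stat2, irf2bp2a and jak2b was not tested.

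**Figure D3:**
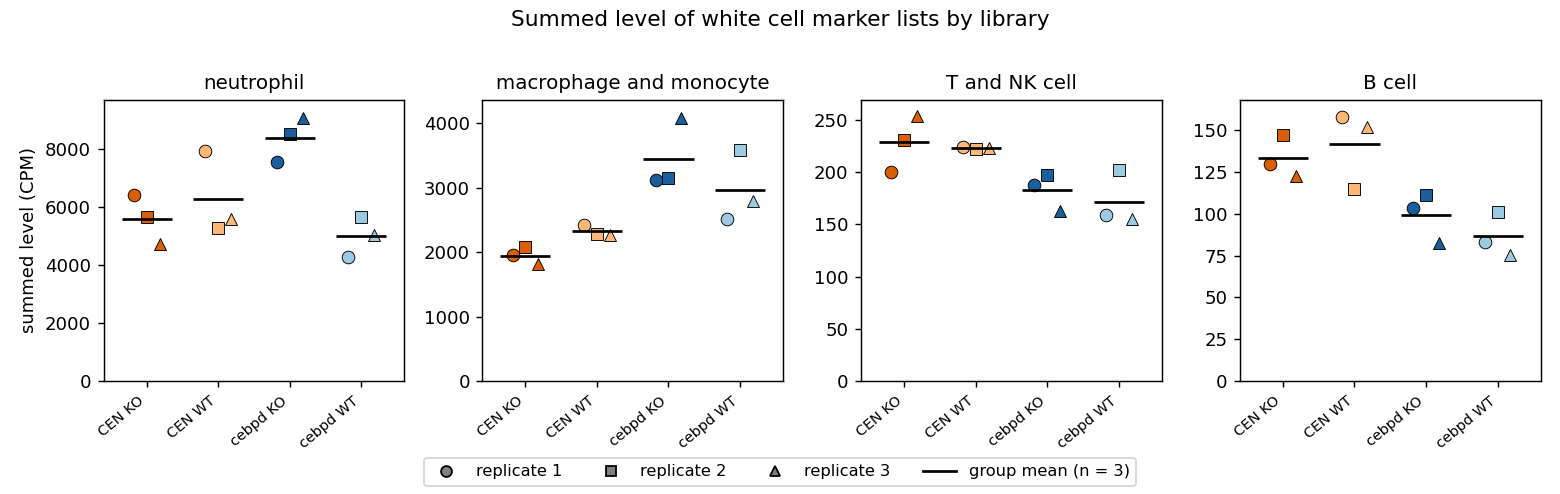
Summed level in CPM (vertical axes, linear from 0) of the neutrophil, macrophage and monocyte, T and NK cell, and B cell marker lists in each library, by group (horizontal axes); symbols give the replicate number and bars the mean of 3 libraries. The neutrophil sums of the 3 cebpd KO libraries, 7539 to 9075 CPM, lie above those of cebpd WT, 4266 to 5661 CPM.

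No SOCS gene was called in cebpd KO, and cish and socs1a varied widely within each group. The feedback inhibitor cish, a STAT5 target, had 107, 35.2 and 82.9 CPM in cebpd KO, against 80.4, 204 and 82.8 CPM in cebpd WT. socs1a, an inhibitor of JAK kinases induced by interferon, also varied, with 37.1, 12.2 and 37.8 CPM in cebpd KO and 31.0, 80.0 and 28.3 CPM in cebpd WT. In both genes the lowest knockout and the highest wild type were the replicates numbered 2, and the groups overlapped. Log2 fold changes were -0.70 ± 0.57 for cish and -0.68 ± 0.49 for socs1a (SE), with adjusted p-values of 0.665 and 0.615. socs2, which restrains growth hormone signalling, spanned 3.52 to 25.3 CPM in cebpd KO and 6.58 to 26.4 CPM in cebpd WT. socs3b, a zebrafish copy of the main inhibitor of gp130-type receptors, had 98.4, 87.2 and 100.3 CPM in cebpd KO, against 69.9, 113 and 75.2 CPM in cebpd WT, and overlapped. Its copy socs3a stood at 0.185, 0.108 and 0.398 CPM in cebpd KO, against 0.169, 0.127 and 0.305 CPM in cebpd WT, around the 3-count floor. Of the 11 SOCS genes tested 3 had a log2 fold change above 0, and the median was -0.17, against -0.01 over all genes. Without cebpd KO replicate 3 this lean was lost, with 6 of 11 above 0 and a median of 0.11.

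**Figure D4:**
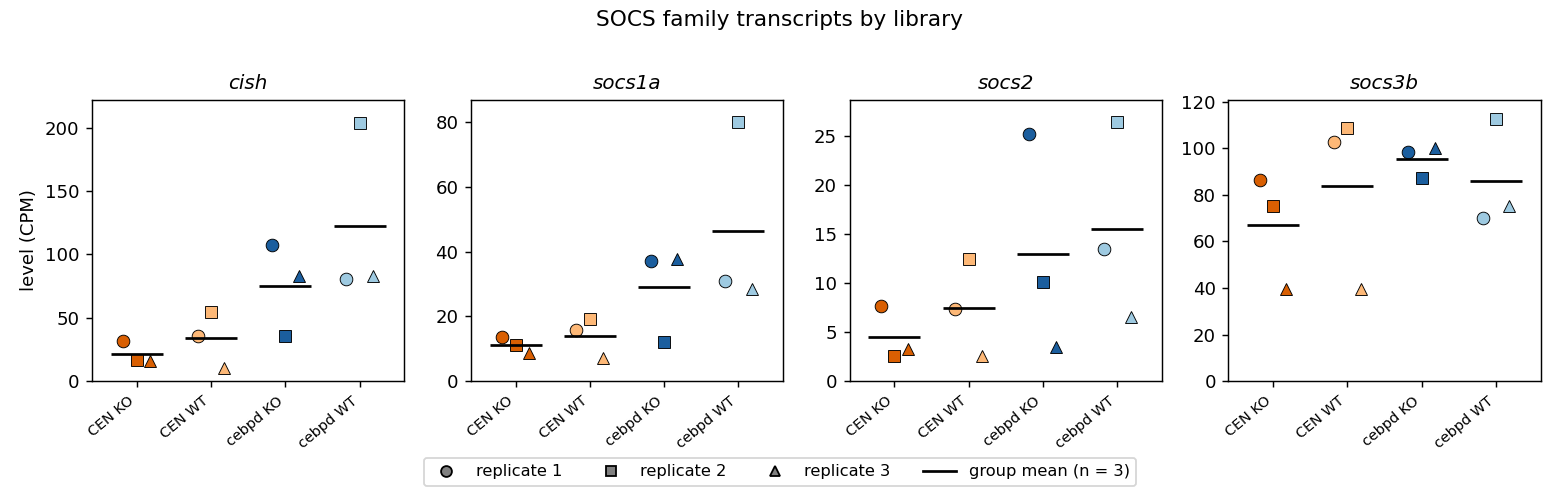
Levels in CPM (vertical axes, linear from 0) of cish, socs1a, socs2 and socs3b in each library, by group (horizontal axes); symbols give the replicate number and bars the mean of 3 libraries. The values of cish run between 35.2 and 107 CPM in cebpd KO, 80.4 and 204 CPM in cebpd WT, and 10.3 and 54.8 CPM over both CEN groups.

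The antiviral effectors rested on few counts. isg15, a ubiquitin-like protein that is conjugated to other proteins after interferon, had 7.04, 9.03 and 12.1 CPM in cebpd KO, against 4.66, 5.70 and 15.4 CPM in cebpd WT. The groups overlapped, and the log2 fold change was 0.13 ± 0.44 (SE), or -0.07 ± 0.49 without cebpd KO replicate 3 (SE). The Mx GTPase mxa spanned 2.16 to 2.96 CPM in cebpd KO and 1.97 to 3.05 CPM in cebpd WT, and rsad2 1.08 to 1.99 CPM in cebpd KO and 0.951 to 2.80 CPM in cebpd WT. The RNA-binding effector ifit14 alone did not overlap, with 2.60, 3.39 and 4.91 CPM in cebpd KO, against 1.97, 1.27 and 2.44 CPM in cebpd WT (log2 fold change 0.94 ± 0.37, SE, adjusted p 0.284). Of the 9 effectors tested 5 had a log2 fold change above 0, with a median of 0.01, and without cebpd KO replicate 3 also 5, with a median of 0.10. Near-identical copies within the Mx and Ifit families may share or lose reads, so these levels are uncertain.

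In the CEN knockouts no member was called, in the main test or under any alternative tried. The main test did not call the cebpd transcript itself in this comparison either, though its groups did not overlap. Its log2 fold change was -1.94 ± 0.32 (SE, adjusted p 0.106 by edgeR). The lack of calls therefore does not show that the members are unchanged. By edgeR 0 of 48 members were called, where the background was 1 gene or 0.00845%; 2 members, both higher, had an unadjusted p under 0.05, against 9.86% of all genes in either direction and 5.99% higher. DESeq2 called 0 members, against 1.17% of all genes, and limma-voom 0, against 0.0422%. Groups did not overlap in 6 members, 2 higher and 4 lower in CEN KO, which is 12.5% of the members. Of all genes 19.3% did not overlap, 9.57% higher and 9.78% lower. The log2 fold change was above 0 in 22 of 48, with a median of -0.04, against 0.00 over all genes.

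stat4 stood at 50.6, 61.6 and 52.6 CPM in CEN KO, against 43.9, 32.6 and 48.2 CPM in CEN WT. The groups did not overlap, and the log2 fold change was 0.40 ± 0.16 (SE, adjusted p 0.429). ifitm5 had 1.27, 2.55 and 0.849 CPM in CEN KO, against 0.384, 0.627 and 0.452 CPM in CEN WT, few counts in each library. It had the largest fold change of the comparison among the members, 3.15-fold or 1.66 ± 0.57 on the log2 scale (SE, adjusted p 0.336). The members irf4a, irf2bp2a, irf10 and stat5a were lower in all 3 CEN KO libraries than in any CEN WT library. irf4a had 6.09, 5.79 and 5.09 CPM in CEN KO, against 8.67, 8.05 and 7.80 CPM in CEN WT. Its log2 fold change was -0.53 ± 0.28 (SE, adjusted p 0.567). irf2bp2a had 134, 156 and 138 CPM in CEN KO, against 183, 162 and 168 CPM in CEN WT, with a log2 fold change of -0.26 ± 0.14 (SE, adjusted p 0.574).

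stat2, irf5 and irf8 overlapped between the CEN genotypes. stat2 stood at 86.6, 113 and 123 CPM in CEN KO, against 74.0, 100.5 and 100.3 CPM in CEN WT. Replicate 1 was its lowest library in each group. stat3 had 49.6, 53.8 and 40.2 CPM in CEN KO, against 41.8, 49.5 and 39.5 CPM in CEN WT, and overlapped (log2 fold change 0.14 ± 0.34, SE). irf5 had 35.1, 30.8 and 32.1 CPM in CEN KO, against 35.2, 32.1 and 35.04 CPM in CEN WT, a log2 fold change of -0.06 ± 0.14 (SE). irf8 was at 86.4, 91.5 and 83.4 CPM in CEN KO, against 98.9, 73.4 and 84.3 CPM in CEN WT, with a log2 fold change of 0.03 ± 0.18 (SE). irf1a stood at 0.443, 0.694 and 0.303 CPM in CEN KO, against 0.604, 0.732 and 1.19 CPM in CEN WT, with overlap and few counts (log2 fold change -0.79 ± 0.42, SE, adjusted p 0.569).

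The kinases jak2a and jak2b overlapped between the CEN groups. jak2a had 219.9, 155 and 175 CPM in CEN KO, against 242, 176 and 225 CPM in CEN WT, and jak2b 99.8, 96.6 and 104 CPM in CEN KO, against 91.3, 80.8 and 97.6 CPM in CEN WT. Their log2 fold changes were -0.23 ± 0.18 and 0.16 ± 0.11 (SE).

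All 11 tested SOCS genes had a log2 fold change below 0 in the CEN comparison, with a median of -0.32, and none passed. Over all genes the median was 0.00, and 50.6% were above 0. The SOCS changes came as near to 0 as -0.02 ± 0.15 for socs6b (SE). cish had 32.0, 16.7 and 15.6 CPM in CEN KO, against 35.9, 54.8 and 10.3 CPM in CEN WT. socs1a had 13.7, 11.11 and 8.73 CPM in CEN KO, against 15.6, 19.3 and 7.12 CPM in CEN WT. For both the highest and the lowest of the 6 values were wild types, so the groups overlapped throughout. socs3b had 86.5, 75.1 and 39.5 CPM in CEN KO, against 103, 109 and 39.5 CPM in CEN WT, with replicate 3 lowest in each group. socs3a stood at 0.0554, 0.289 and 0.121 CPM in CEN KO, against 0.220, 0.209 and 0 CPM in CEN WT, around the 3-count floor. The effectors leaned the other way, with 8 of 9 above 0 and a median of 0.15, and none passed. isg15 stood at 6.37, 9.84 and 11.5 CPM in CEN KO, against 5.87, 6.69 and 11.9 CPM in CEN WT, and overlapped. The neutrophil markers summed to 4707 to 6415 CPM in CEN KO and 5273 to 7936 CPM in CEN WT, with overlap. The macrophage and monocyte markers did not overlap, at 1808 to 2078 CPM in CEN KO and 2261 to 2422 CPM in CEN WT, where 7 of 16 genes had a log2 fold change above 0 and edgeR called 0. Without lgmn, a lysosomal protease gene that held much of this sum, the other genes overlapped, at 1202 to 1361 CPM in CEN KO and 1286 to 1418 CPM in CEN WT. The T and NK cell sums, 200.2 to 254 CPM in CEN KO and 223 to 224 CPM in CEN WT, and the B cell sums, 123 to 147 CPM in CEN KO and 115 to 158 CPM in CEN WT, overlapped. Erythroid markers leaned the same way as the SOCS genes, with 0 of 12 genes above 0 and a median of -0.32, and summed to 10027 to 25072 CPM in CEN KO and 23798 to 31016 CPM in CEN WT, with overlap and 0 called. Distal and proximal tubule markers leaned the other way, with 7 of 9 and 10 of 13 genes above 0 and 0 called. The part of these cells in the SOCS and effector values was not tested.

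The difference between both knockout effects, taken as the cebpd effect minus the CEN effect, was tested directly. By edgeR 0 of 48 members passed, against 0.0422% of all genes. At an unadjusted p under 0.05 there were 7 members, 6 with a higher and 1 with a lower cebpd effect, against 12.9% of all genes, 5.69% higher and 7.23% lower. DESeq2 called 2, irf5 and irf2bp2a, both positive, against 2.91% of all genes in either direction and 0.921% positive, and limma-voom 0, against 0.0676%. For irf5 the difference was 0.79 ± 0.20 on the log2 scale (SE; adjusted p 0.136 by edgeR and 0.0203 by DESeq2). For irf2bp2a it was 0.77 ± 0.20 (SE; adjusted p 0.136 by edgeR and 0.0203 by DESeq2), and the knockouts lay on opposite sides of their wild types. irf8 had a difference of 0.58 ± 0.26 (SE, adjusted p 0.367) and stat2 of 0.47 ± 0.28 (SE, adjusted p 0.518).

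**Figure D5:**
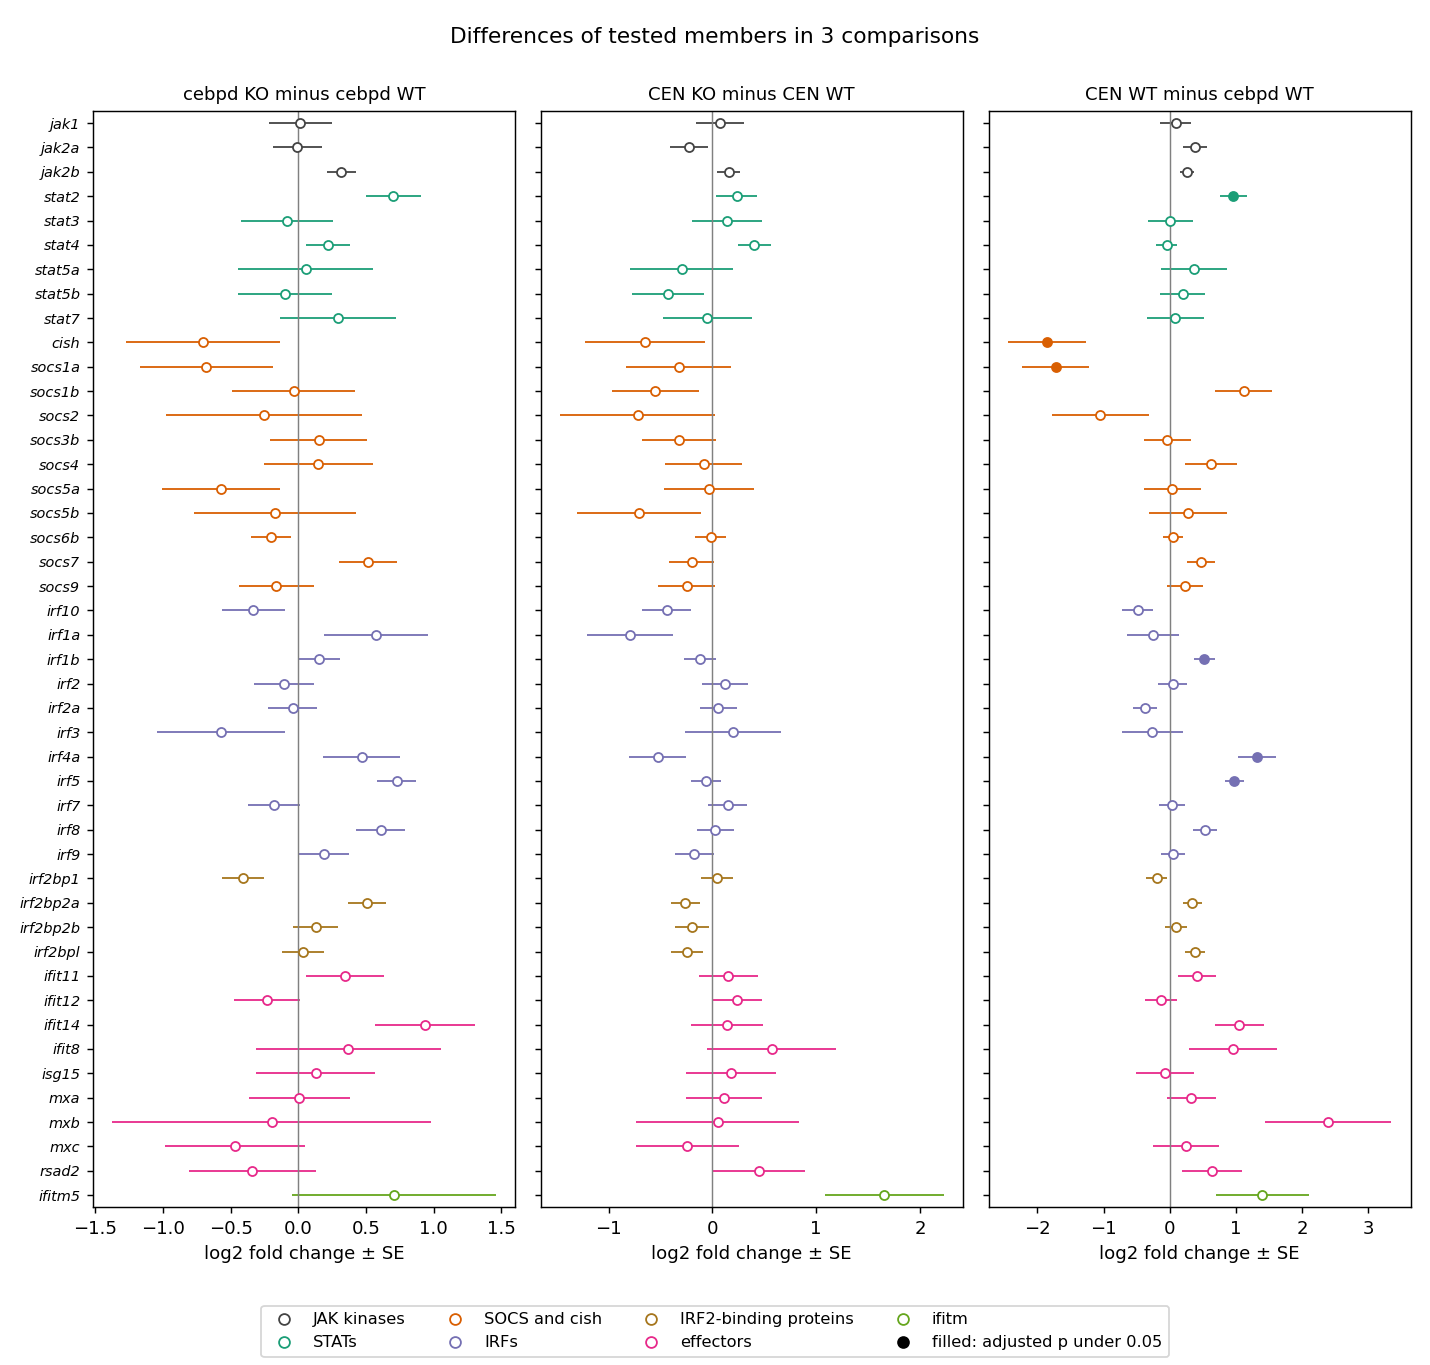
Log2 fold changes of 45 of the 48 tested members (rows, grouped by role) with their SE as bars, for cebpd KO minus cebpd WT, CEN KO minus CEN WT and CEN WT minus cebpd WT (panels from left to right). Filled points passed edgeR's test at an adjusted p under 0.05. None is filled in the knockout panels, and 6 are filled in the wild-type panel.

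The largest differences of these genes were between the wild types of the separate experiments. In CEN WT, 5 members were higher than in cebpd WT (among them irf5, stat2, irf4a and irf1b) and 2 were lower (cish and socs1a). By edgeR these 7 of 48 members, or 14.6%, passed, against a background of 2961 genes or 25.0%, of which 10.9% were higher and 14.1% lower. The share of members called was thus below that of all genes. At an unadjusted p under 0.05 there were 15 members, or 31.2%, against 38.0%, and the groups did not overlap in 14, or 29.2%, against 46.4% of all genes. DESeq2 called 9 members and limma-voom 8, against 29.7% and 25.2% of all genes, and these included all 7. The log2 fold change was above 0 in 35 of 48 members, with a median of 0.24, against 0.01 over all genes, 50.7% of which were above 0. Both groups are labelled wild type, so the fish line, the rearing, the handling and the sequencing of each experiment cannot be told apart here.

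irf5 rose 1.97-fold in CEN WT, with means of 34.1 CPM ± 1.74 in CEN WT and 17.3 CPM ± 2.47 in cebpd WT (SD, n = 3 each) and a log2 fold change of 0.98 ± 0.14 (SE, adjusted p 0.00104). Its lowest CEN WT library, 32.1 CPM, was also above the highest cebpd KO library, 31.6 CPM. stat2 rose 1.95-fold, with means of 91.6 CPM ± 15.3 in CEN WT and 47.1 CPM ± 11.2 in cebpd WT (SD, n = 3 each), a log2 fold change of 0.96 ± 0.20 (SE, adjusted p 0.00561).

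irf4a rose 2.49-fold, with 8.67, 8.05 and 7.80 CPM in CEN WT, against 2.75, 4.44 and 2.68 CPM in cebpd WT (log2 fold change 1.31 ± 0.28, SE, adjusted p 0.00694). irf1b, the other Irf1 copy, had 52.1, 48.4 and 51.3 CPM in CEN WT, against 29.0, 35.9 and 40.7 CPM in cebpd WT. Its rise of 0.52 ± 0.15 on the log2 scale (SE) passed (adjusted p 0.0285), and lost its call when any of 5 of the 6 wild-type libraries was left out, all but cebpd WT replicate 3 (adjusted p 0.0579 to 0.0993). In the cebpd experiment irf1b had 33.8, 37.0 and 46.7 CPM in cebpd KO, and in the CEN experiment 44.2, 50.5 and 44.9 CPM in CEN KO, without passing against either wild type. irf8 missed the threshold between the wild types by edgeR (adjusted p 0.051) and passed by DESeq2 (0.0261) and limma-voom (0.046), with a log2 fold change of 0.53 ± 0.18 (SE).

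The inhibitors cish and socs1a were lower in all 3 CEN WT libraries than in any cebpd WT library. cish fell 3.63-fold, with means of 33.7 CPM ± 22.3 in CEN WT and 122 CPM ± 70.6 in cebpd WT (SD, n = 3 each), a log2 fold change of -1.86 ± 0.59 (SE, adjusted p 0.0377). socs1a fell 3.31-fold, with means of 14.0 CPM ± 6.25 in CEN WT and 46.4 CPM ± 29.1 in cebpd WT (SD, n = 3 each), a log2 fold change of -1.73 ± 0.51 (SE, adjusted p 0.0278). Both calls were lost without cebpd WT replicate 2, the highest library, with adjusted p-values of 0.153 for cish and 0.129 for socs1a. They were also lost without CEN WT replicate 1 or replicate 3 (adjusted p 0.077 to 0.104), and cish without cebpd WT replicate 3 (adjusted p 0.0518). Without cebpd KO replicate 3, 12 members passed between the wild types. That library enters this comparison only through the filter, the scaling and the shared estimate of the spread. Calls over all genes also changed when a library was left out, so the 12 are not read as a result about the members. socs3b did not differ beyond the spread, with a log2 fold change of -0.04 ± 0.36 (SE), and the relative socs2 had -1.05 ± 0.73 (SE, adjusted p 0.317).

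Lymphocyte markers moved with this comparison. The T and NK cell list summed to 223 to 224 CPM in CEN WT and 155 to 202 CPM in cebpd WT. These sums include gata3, which also stands in the distal tubule list. All 13 tested genes of the T and NK cell list had a log2 fold change above 0 and 6 of them (46.2%, against 25.0% of all genes) passed by edgeR, while nitr9 had no count in any library. The B cell list summed to 115 to 158 CPM in CEN WT and 75.2 to 101 CPM in cebpd WT, with 3 of 7 genes called higher (rag1, rag2 and pax5) and cd22 called lower, 57.1% of the list in all. Neutrophil sums overlapped, at 5273 to 7936 CPM in CEN WT and 4266 to 5661 CPM in cebpd WT, and 5 of 18 genes were called (27.8%), 2 higher and 3 lower. The macrophage and monocyte sums were lower in CEN WT, at 2261 to 2422 CPM, than in cebpd WT, at 2514 to 3583 CPM, through lgmn. That gene had 1012, 996 and 843 CPM in CEN WT, against 1447, 2066 and 1552 CPM in cebpd WT, and the other genes of the list overlapped, at 1286 to 1418 CPM in CEN WT and 1067 to 1516 CPM in cebpd WT. Of the 16 genes 10 had a log2 fold change above 0, with a median of 0.13, and edgeR called 1 higher and 1 lower. Erythroid genes were above 0 in 10 of 12, with 0 called. The part of these markers in the levels of irf4a, irf5 and stat2 was not tested.

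Other genes of the pathway, from lists of ligands, receptors, phosphatases and targets that share no gene with the members, showed no call in either knockout. Of 34 tested cytokine and interferon receptor genes, 10 ligand genes, 14 phosphatase and PIAS genes, 27 STAT3-type target genes, 13 STAT5-type target genes, 29 further interferon-stimulated genes and 12 genes of virus sensing, edgeR called 0 in cebpd KO and 0 in CEN KO. At an unadjusted p under 0.05 in cebpd KO, where 13.4% of all genes stood, there were 6 receptors (17.6%), 3 ligands (30%), 3 phosphatase and PIAS genes (21.4%), 5 STAT3-type targets (18.5%), 0 STAT5-type targets, 1 interferon-stimulated gene (3.45%) and 2 virus-sensing genes (16.7%). In CEN KO, where 9.86% of all genes stood, there were 7 STAT3-type targets (25.9%), 4 higher and 3 lower. Among the higher ones, fgb rested largely on CEN KO replicate 2. It had 9.03, 54.6 and 2.79 CPM in CEN KO, against 3.57, 4.34 and 4.35 CPM in CEN WT, and the groups overlapped. The other lists had 1 receptor (2.94%), 1 ligand (10%), 2 phosphatase and PIAS genes (14.3%), 2 STAT5-type targets (15.4%), 1 interferon-stimulated gene (3.45%) and 2 virus-sensing genes (16.7%) in CEN KO. In lists of 10 to 14 genes a single gene is a large share. DESeq2 called 1 receptor (2.94%), 3 STAT3-type targets (11.11%) and 1 virus-sensing gene (8.33%) in cebpd KO, against 3.4% of all genes, and 1 STAT5-type target (7.69%) in CEN KO, against 1.17%. limma-voom called 0 in both.

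Some receptor genes also stand in the cell marker lists, csf3r and il6r in the neutrophil list, csf1ra in the macrophage list and il7r and il2rb in the T and NK cell list. Of the target genes, gata1a, alas2 and tfr1a also stand in the erythroid list and il1b in the macrophage list. The STAT3-type and STAT5-type lists share pim1, bcl2l1 and bcl6a, and the interferon-stimulated and virus-sensing lists share tlr3. The lists are therefore not independent of each other or of the cell markers. il6r, which binds interleukin 6, had 78.9, 84.1 and 84.5 CPM in cebpd KO, against 59.3, 64.6 and 58.8 CPM in cebpd WT. These did not overlap, and the log2 fold change was 0.44 ± 0.12 (SE, adjusted p 0.13). The calcium-binding protein gene icn, in the STAT3-type list, stood at 345, 501 and 606 CPM in cebpd KO, against 202, 256 and 290 CPM in cebpd WT (log2 fold change 0.96 ± 0.21, SE, adjusted p 0.0877). The Toll-like receptor gene tlr21 had 10.4, 15.3 and 8.49 CPM in cebpd KO, against 4.78, 6.78 and 6.15 CPM in cebpd WT (log2 fold change 0.95 ± 0.23, SE, adjusted p 0.103). The phosphatase gene ptpn1, whose product acts on Jak2 in mammals, lay lower, at 52.5, 53.6 and 41.1 CPM in cebpd KO, against 76.5, 81.7 and 55.9 CPM in cebpd WT (log2 fold change -0.54 ± 0.16, SE, adjusted p 0.16). In CEN KO the transferrin receptor gene tfr1b, from the STAT5-type list, had 194, 244 and 227 CPM, against 123, 105 and 148 CPM in CEN WT (log2 fold change 0.82 ± 0.18, SE, adjusted p 0.181). The AP-1 gene fosl2 had 28.5, 27.14 and 21.5 CPM in CEN KO, against 49.7, 47.1 and 31.5 CPM in CEN WT (log2 fold change -0.73 ± 0.21, SE, adjusted p 0.256).

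Between the wild types, 4 of 29 further interferon-stimulated genes rose in CEN WT and none fell. They were the immunity-related GTPase gene irge4 (log2 fold change 2.63 ± 0.43, SE), the RNA sensor gene ifih1 (0.75 ± 0.22), the chemokine gene cxcl20 (0.65 ± 0.14) and parp12b (0.52 ± 0.16). irge4 had 1.81, 2.14 and 1.70 CPM in CEN WT, against 0.393, 0.127 and 0.365 CPM in cebpd WT, near the depth floor. Of the virus-sensing list, traf3, tlr21 and tlr22 were among 4 genes that rose, and the adaptor gene ticam1 fell by 1.16 on the log2 scale. Of 34 receptors 4 rose, among them il12rb2, il7r and lifra, and il4r.1 fell by 1.43 on the log2 scale. Among the other lists cntf, ptpn1, ptpn2b, igfbp1a and fgb were lower in CEN WT and pim2, bcl6a and igf2a higher. The share of called genes was 13.8% for the further interferon-stimulated genes, 14.7% for the receptors and 41.7% for the 12 virus-sensing genes, against the background of 25.0%.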

How the data were processed

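RNA from whole kidneys was sequenced in 12 libraries. For each library the authors deposited un-normalized read counts per gene symbol. The submitters' processing notes list HTSeq, TopHat2 2.1.1, Trim Galore 0.6.4 and the build danRer10 without their roles, and the sources used here do not give the strand setting. Reads of antisense genes or of similar genes (stat5a and stat5b, the Mx and Ifit copies) may be shared or lost. How alike their sequences are was not examined. Lines for reads in no gene (32.1 to 38.5%) or in more than 1 gene (1.32 to 3.99%) entered neither library sizes nor tests.

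Tests were run on these counts with edgeR 4.0.16 under R 4.3.3. filterByExpr (minimum count 10) kept 11840 genes, TMM factors ran between 0.835 and 1.10, and CPM values use them. The quasi-likelihood test had 1 term per group over all 12 libraries (8 residual degrees of freedom), with Benjamini-Hochberg adjustment over all genes tested. Each SE was taken from the log2 fold change and the root of its F value, and the biological coefficient of variation common to all genes was 25.3%. CPM is not per length, so levels are not compared between genes. The fit was tested on simulated data. No 2 libraries of a group were alike within sampling noise (chi-square per degree of freedom 26.1 to 83.0).

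Alternatives were DESeq2 1.42.0, limma-voom (limma 3.58.1), other scalings, filtering at 5 CPM in 3 libraries or not at all, fits on 6 libraries, the replicate number as a block, a threshold of 0.1, and leaving out each library.

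The members, the gene lists and the tests were chosen with earlier results of these data known. Values in every library are given for members past the threshold in any comparison, the 5 of lowest p in each knockout comparison, the 3 of lowest p in the difference of effects and between the wild types, 1 member of highest mean CPM in each of the kinase, STAT, SOCS, IRF and effector groups, and stat3, socs3a, socs3b and cish; 3 members that enter the counts are not reported here by name. The library values of other members were picked after they were seen, as examples or because their groups did not overlap. From each list outside the members up to 4 called genes, or the 2 of lowest p, could be named for their changes, and genes that stand in more than 1 list are named as such. Symbols were matched to a RefSeq table (assembly GRCz12tu, newer than the build used) for 48 members by symbol and 3 by synonym, and no coordinates or sequences are given.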

Additional observations from a re-analysis of the deposited data

Results flagged for a closer look

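irf2bp2a was picked out because its groups did not overlap in either of the 2 experiments and its knockout effects pointed in opposite directions. Opposite directions alone also held for other members, such as irf4a and irf1a. The share of all genes that meet the full rule was not counted, so the pick of irf2bp2a is not read as a result about the members. All 3 cebpd KO libraries (157, 211 and 208 CPM) were above all cebpd WT libraries (122, 149 and 134 CPM), and all 3 CEN KO libraries (134, 156 and 138 CPM) were below all CEN WT libraries (183, 162 and 168 CPM). The difference of effects was 0.77 ± 0.20 on the log2 scale (SE); the adjusted p was 0.136 in edgeR's interaction contrast and 0.0203 with DESeq2. Over the alternatives it lay between 0.70 and 0.89, with adjusted p-values between 0.0203 and 0.35. The neutrophil markers also differed in direction between the knockouts, with 16 of 18 genes above 0 for cebpd and 5 of 18 for CEN, and their part in the irf2bp2a values was not tested. No gap test for single outlying values was run on groups of 3 libraries.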

How the results depend on the processing

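In cebpd KO, where 0 members were called, 3 passed by DESeq2 (irf5, irf2bp2a and stat2), 1 with genes under 5 CPM left out (irf5) and 1 at an adjusted p under 0.1. Leaving out 1 library gave 0 to 1, the 1 being irf5 without cebpd KO replicate 3. In the difference of effects 2 passed by DESeq2 (irf5 and irf2bp2a), and leaving out 1 library gave 0 to 0. In CEN KO every alternative gave 0. Between the wild types the 7 became 13 at an adjusted p under 0.1 and 7 to 9 under the other alternatives that kept all libraries or only those compared, with the same 7 genes in each. For most of these settings the share of all genes is not given, so the counts are not read as a result about the members. Leaving out 1 library gave 4 to 12, 4 without CEN WT replicate 1 or 3 and 12 without cebpd KO replicate 3. irf5, irf4a and stat2 kept their calls in all 20 settings. Over all genes, the calls in cebpd KO were 10, against 402 by DESeq2, 44 with the 5 CPM filter, 134 at an adjusted p under 0.1, 1 with 6 libraries and 1 to 233 with 1 library left out, the highest without cebpd KO replicate 3. In CEN KO they were 1, against 138 by DESeq2, 5 by limma-voom, 3 with the 5 CPM filter, 2 with 6 libraries, 4 at an adjusted p under 0.1 and 1 to 7 with 1 library left out. In the difference of effects they were 5, against 344 by DESeq2, 8 each by limma-voom, with the 5 CPM filter and at an adjusted p under 0.1, and 0 to 48 with 1 library left out. Between the wild types they were 2961, and 1630 to 4013 with 1 library left out. The cause was not tested.

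Replicates with the same number correlated, as deviations from their group means, between -0.01 and 0.37 in the cebpd experiment and between -0.02 and 0.20 in the CEN experiment. Those of different number correlated between -0.44 and 0.33 in the cebpd experiment and between -0.24 and 0.05 in the CEN experiment. The ranges overlap and do not settle whether the numbers pair libraries. The main test did not pair them. A replicate block gave 2 members in cebpd KO (irf5 among them), 0 in CEN KO, 1 in the difference of effects and 8 between the wild types, and 197, 11 and 129 genes over all genes in the first 3. The count over all genes is not given for the wild types. Of 551 alternative values of 28 log2 fold changes, 520 kept direction and side of the threshold, 12 lost the threshold, 19 passed it newly and 0 turned their direction. Members near the floor of 0.166 to 0.190 CPM (without TMM factors), such as socs3a, ifit10 and mxb, could show only large differences at this depth.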
